A study of Mus musculus with 28 samples.

Results

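The adhesion-type receptor tyrosine phosphatases are membrane proteins with an outer part built like that of a cell adhesion molecule. Their inner part is of the kind that removes phosphate from tyrosines. The 9 genes described here, Ptprm, Ptprk, Ptprt, Ptpru, Ptprd, Ptprf, Ptprs, Ptprz1 and Ptprg, were chosen by name, and all 9 were found in both deposited count tables, among 23453 genes in the exonic table and 20422 in the intronic table. Ptprm is the member that the study itself names in its comparison of open chromatin with intronic RNA. Together the 9 genes held 592969 exonic counts, 0.134% of all exonic counts, and 655904 intronic counts, 0.609% of all intronic counts.

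RNA from 28 single mouse brain cells had been sequenced. By the sample labels, 8 were astrocytes and 12 were neurons in primary culture from the cortex of C57/BL6 mice, and 8 were interneurons taken with a patch-clamp pipette from the prefrontal cortex in acute slices of C57/BL6/N mice. The genotype labels give the strain alone, no transgene or drug treatment is given for any group, and no animal or culture is named for any cell. For the cultured cells the labels describe a perfused male mouse aged 3 months, whereas the study's methods describe cultures from embryos of both sexes, and the age of the cultured cells' source is therefore uncertain. For the slices the labels give no age. The cultured cells and the interneurons went through different library kits and sequencers.

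Columns are named by codes found in none of the sample labels, and 0 of the 28 could be tied to a labelled cell type. The genes are therefore described per cell and over 3 blocks of column codes: BRP564 with BRP566 to BRP572 (8 cells, the BRP564 block), the other 12 BRP columns, and the 8 F columns. The blocks are presumed to be astrocytes, neurons and interneurons from their sizes and marker genes, and they were set with the values known. Differences between blocks are given as description, with no test. Between the presumed cultured cells and the F columns, cell type, culture or slice, strain label, cortical region, library kit and sequencer cannot be told apart. Age may differ as well, since it is uncertain for the cultures and not given for the slices.

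Summed marker genes went with the presumed names in most cells, though single markers did not always do so. The summed level of 8 astrocyte markers, in counts per 1000000 exonic counts of the cell (exonic CPM), was 1522 to 6174 in the BRP564 block (median 2957), 191.3 to 2463 in the other BRP columns (median 950.0) and 0 to 4352 in the F columns (median 100.2). Aqp4, the astrocyte water channel, was at 651.6 to 2062 CPM in the BRP564 block and at most 0.683 CPM in the F columns. Slc1a2 alone of the list had a lower median in the BRP564 block than in the other BRP columns, 191.7 against 803.6 CPM. Much of the astrocyte sum in the other BRP columns was thus Slc1a2. The sum of 7 neuronal markers was 299.5 to 800.8 CPM in the BRP564 block, 4898 to 9982 CPM in the other BRP columns and 1608 to 17800 CPM in the F columns. Snap25, Syt1 and Map2 had F medians of 1546, 496.9 and 645.8 CPM, against 0, 1.22 and 357.6 CPM in the BRP564 block. Stmn2 and Tubb3 went the other way, with 76.8 against 193.8 CPM and 4.45 against 8.40 CPM. Rbfox3 and Nefl had F medians of 0.125 and 0.527 CPM, against 0 in the BRP564 block. The sum of 6 GABAergic markers was 479.0 to 11884 CPM in the F columns, against medians of 17.4 CPM in the BRP564 block and 39.1 CPM in the other BRP columns. Gad1 and Slc32a1 had the highest F medians, 2754 and 530.5 CPM. The F median of Gad2 was 10.2 CPM, below 36.3 CPM in the other BRP columns. Pvalb had counts in 3 of 8 F columns (median 0) and in 7 of 8 cells of the BRP564 block (median 4.02 CPM). Sst had counts in 2 F columns and Vip in 1. The sum of 4 glutamatergic markers had a median of 466.9 CPM in the other BRP columns and of less than 1 CPM in both other blocks, and that of 6 oligodendrocyte-lineage markers had medians of 202.4, 18.5 and 1.05 CPM in the BRP564 block, the other BRP columns and the F columns. Several cells stood apart from their block. BRP528 held 2993 CPM of GABAergic markers and 657.7 CPM of oligodendrocyte-lineage markers, BRP529 held 475.0 CPM and BRP541 533.4 CPM of oligodendrocyte-lineage markers, F7 held the 4352 CPM of astrocyte markers, nearly all of it Slc1a2, and F16 held 2093 CPM of Csf1r, with the other 3 microglial markers, C1qa, C1qb and Cx3cr1, at 0. The summed microglial markers were at most 46.6 CPM in every other cell. Endothelial markers reached at most 19.7 CPM and fibroblast markers at most 82.1 CPM, with Cldn5 at 0 exonic counts in all 28 cells.

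Depth differed between the blocks. Exonic totals ran from 12969692 to 19798892 counts in the BRP564 block, from 17483754 to 26770944 in the other BRP columns and from 838343 to 14831505 in the F columns. F11 and F12 correlated with each other at r = 0.954 in log2(CPM + 1), against at most 0.471 for any other pair of F columns. Their counts still differed by more than sampling noise, with a chi-square of 17.6 per degree of freedom over 1900 genes. Counts that rest on the F columns are given below with the 2 columns named.

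Receptor tyrosine phosphatases of the adhesion type fall into subfamilies by their outer domains. Ptprm, Ptprk, Ptprt and Ptpru carry a MAM domain and act at junctions built of cadherins and catenins. Ptprm, Ptprk and Ptprt bind the same protein on a neighbouring cell. Ptprd, Ptprf and Ptprs form the LAR subfamily, presynaptic organisers that bind postsynaptic proteins such as the Slitrks and Ntrk3 as well as heparan and chondroitin sulfate proteoglycans, and that bind liprins inside the cell. Ptprz1 and Ptprg carry a carbonic anhydrase-like domain that binds contactins. Ptprz1 also binds pleiotrophin, has a chondroitin sulfate form, and is known in brain from astrocytes, oligodendrocyte precursors and neural progenitors.

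The genes share the sequence signature of a phosphatase catalytic site. The following lines give, for 8 of the 9 genes, the 30 coding bases of the first match to the protein tyrosine phosphatase signature. They are read 5′ to 3′ from GENCODE M21 transcripts on GRCm38 (mm10), with the codon of the signature's cysteine in capitals. They are shown so that the catalytic site can be compared between members.
Ptprk: cacTGCagtgctggtgctgggcgcacaggc
Ptprt: catTGCagtgctggagccgggaggactggc
Ptpru: cacTGCagtgcaggaactggccgcacaggc
Ptprd: cacTGCagtgctggtgttggcagaactggc
Ptprf: catTGCagtgcgggtgtggggcgcacaggc
Ptprs: cacTGCagcgcgggtgtggggcgcactggc
Ptprz1: cacTGCagtgctggcgtggggagaacgggg
Ptprg: cacTGCagcgctggtgtgggcaggacaggc

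Over the 28 pairs of these 8 genes, 20 to 27 of the 30 bases were identical, with a median of 23.5 and the highest value for Ptprf with Ptprs. Exact shared stretches were sought over whole transcripts, untranslated parts included, and not in the catalytic site alone. The longest that transcripts of 2 members shared was 14 to 44 bases, with a median of 17.5, and the 44 bases were shared by Ptprk and Ptprd. Where in the transcripts these stretches lie was not examined. Ptprd, Ptprf and Ptprs held 2 matches to the signature and the other 5 genes held 1. In all 8 genes an intron split the 30 bases at the same place, with 8 bases in the upstream exon and 22 in the next. The length of that intron ran from 77 bases in Ptprf and 79 in Ptprs to 24572 in Ptprd. The split site spans chr4:75957360-75981961 on the minus strand in Ptprd, between exons 29 and 30 of 36. In Ptprz1 it spans chr6:23033499-23035066 on the plus strand, between exons 21 and 22 of 30.

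The genes themselves differed most in intron length. Ptprd (chr4:75941238-78211961) had 2248 kb of intron and 22.8 kb of exon, Ptprt (chr2:161521990-162661147) had 1127 kb of intron, Ptprm (chr17:66666947-67354457) had 678.7 kb, Ptprg (chr14:11553532-12242041) had 677.5 kb and Ptprk (chr10:28074820-28597397) had 509.2 kb. The short genes were Ptprz1 (chr6:22875502-23052916) with 163.2 kb of intron, Ptprf (chr4:118208213-118291405) with 74.0 kb, Ptpru (chr4:131768457-131838288) with 62.7 kb and Ptprs (chr17:56412426-56476483) with 49.1 kb. Non-coding genes and pseudogenes lay within several of them, 10 in Ptprm, 9 in Ptprd and 5 in Ptprg, and no protein-coding gene overlapped any member. The strand setting of the counting is not given in the sources used here, so reads of antisense genes inside introns cannot be told apart from those of their hosts.

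Which phosphatase dominated differed from cell to cell, and the BRP564 block was the most uniform. Per kb of exon, Ptprz1 was the highest of the 9 genes in 8 of 8 cells of that block, with 40.4% to 55.5% of their summed exonic CPM per kb, and Ptprf was the second highest in the same 8. Among the other 12 BRP columns the leading gene was Ptprs in 6, Ptprz1 in 2 (BRP529 and BRP541), Ptprf in 2 (BRP534 and BRP542), Ptprd in 1 (BRP528) and Ptprg in 1 (BRP540). The F columns were led by Ptprm in 4 (F2, F6, F11 and F24), by Ptprf in 2 (F1 and F12), by Ptprg in F7 and by Ptprs in F16. The order within a cell does not depend on how cells are scaled to each other. With coding length, or with CPM and no length, 25 of the 28 cells kept their leading gene, and Ptprs then led 9 of the other BRP columns.

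**Figure D1:**
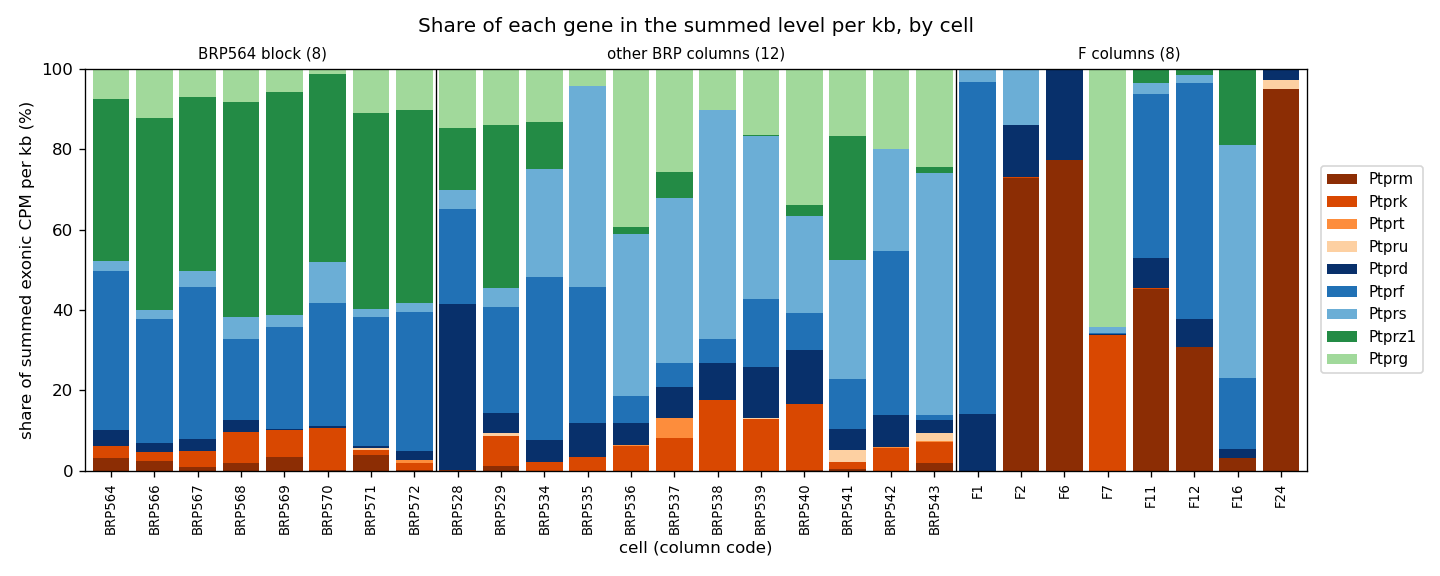
Stacked bars show, for each of the 28 cells on the x axis, the share (in %) of each of the 9 genes in their summed exonic CPM per kb of exon; vertical lines separate the 3 blocks of column codes. Ptprz1 (dark green) takes 40.4% to 55.5% in all 8 cells of the BRP564 block, while in the F columns a single gene takes up to 95.1% (Ptprm in F24).

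The summed exonic CPM of the 9 genes was 541.5 to 2843 in the BRP564 block (median 1643), 539.4 to 2591 in the other BRP columns (median 1149) and 60.8 to 2422 in the F columns (median 778.5). F1, F6 and F16 lay below every BRP cell, and the other 25 cells fell within overlapping ranges. A median of 7 of the 9 genes had at least 1 exonic count in a cell, with block medians of 8, 8 and 6. After each cell was thinned to 838343 exonic counts, the total of the shallowest cell, the median over 28 cells was again 7.

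**Figure D2:**
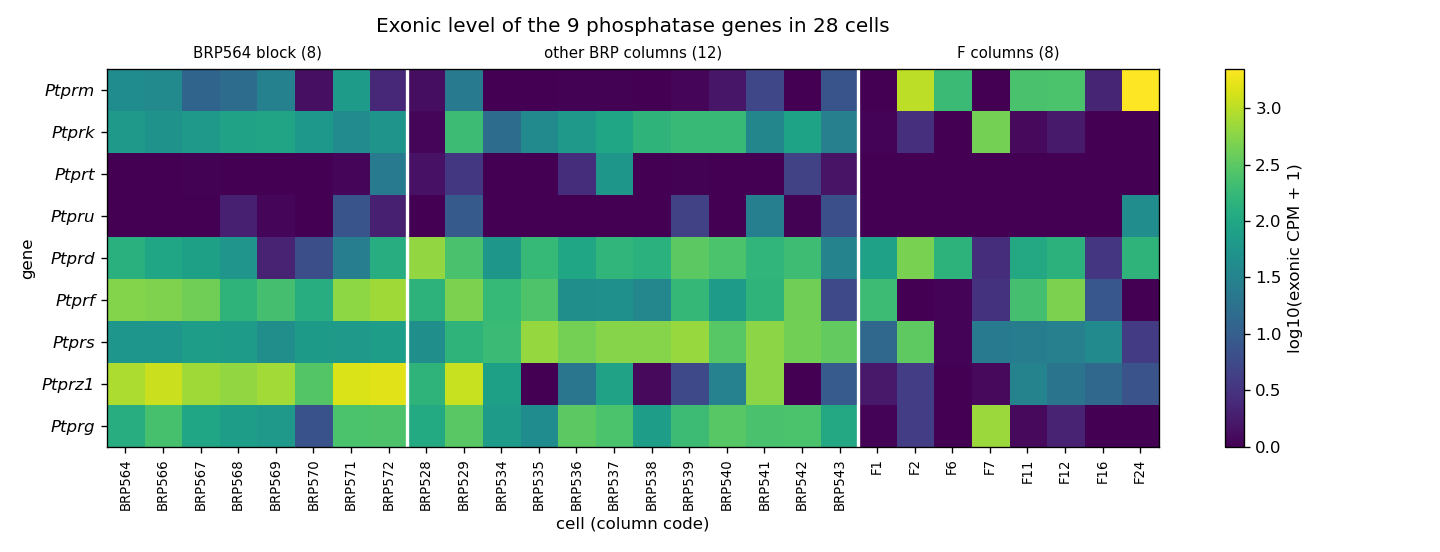
The colour gives log10(exonic CPM + 1) of each gene (rows) in each cell (columns), with the 3 blocks of column codes separated by white lines. Ptprz1 and Ptprf fill the BRP564 block, Ptprs and Ptprg run through the other BRP columns, and the F columns show few filled squares, with Ptprm bright in F2, F6, F11, F12 and F24.

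Ptprm, a homophilic adhesion molecule, was the gene with the most uneven levels among those with counts in most cells. In the F columns its exonic level was 0 CPM in F1, 1021 in F2, 192.9 in F6, 0 in F7, 243.0 in F11, 247.5 in F12, 1.19 in F16 and 2222 in F24. It was thus at 10 CPM or more in 5 of 8 F columns, and in 3 of the 6 that remain without F11 and F12. In the BRP564 block Ptprm ran from 0.354 to 69.4 CPM with a median of 21.5, and in the other BRP columns from 0 to 22.8 CPM with a median of 0.0839. The F columns overlapped both other blocks at the low end, and their 5 high cells lay above every BRP cell. Of all exonic counts of Ptprm, 68.3% came from 3 cells.

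Ptprk, another homophilic receptor with a MAM domain, had counts in all 20 BRP cells and was scarce in the F columns. Its exonic level was 39.8 to 89.4 CPM in the BRP564 block (median 61.0) and 0.0996 to 198.9 CPM in the other BRP columns (median 73.2). In 7 of the 8 F columns it was at most 1.81 CPM, and in F7 it was 447.4 CPM from 3889 counts, the highest value of all 28 cells. F7 was also the F column with the most Slc1a2, at 4350 CPM. Slc1a2 had counts in 7 of the 8 F columns, with a median of 4.1 CPM. Whether its level in F7 has a part in that of Ptprk was not tested.

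Ptprt and Ptpru, the other two MAM-domain genes, had exonic counts in only 10 of 28 cells each. Ptprt reached 58.4 CPM in BRP537 and 23.0 CPM in BRP572, and its 1563 counts in BRP537 were 71.8% of all its exonic counts. All 8 F columns had 0 exonic counts of Ptprt, which allows levels up to 0.202 CPM in the deepest and 3.58 CPM in the shallowest of them (3 counts). Ptpru was highest in F24 at 42.5 CPM, from 90 counts, followed by BRP541 at 27.2 CPM, from 478 counts. In each of the other 26 cells Ptpru was at most 7.88 CPM.

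Ptprd, a presynaptic organiser and the longest gene of the 9, was found in 28 of 28 cells. Its exonic level was 30.3 to 641.2 CPM in the other BRP columns (median 166.0), 1.73 to 469.8 CPM in the F columns (median 123.3) and 1.16 to 131.4 CPM in the BRP564 block (median 67.6). BRP528, the BRP cell with the most GABAergic markers, held the highest value. The 3 ranges overlapped between 30.3 and 131.4 CPM.

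Ptprf, known also as LAR, had the highest median per kb over all 28 cells, 17.6 exonic CPM per kb. In the BRP564 block it ran from 119.5 to 730.5 CPM with a median of 459.7, and in the other BRP columns from 4.49 to 487.5 CPM with a median of 148.6. The F columns split into 3 cells with high values, 193.7 CPM in F1, 226.4 in F11 and 489.8 in F12, and 5 cells with at most 7.16 CPM. Of the 3 high cells only F1 remains when F11 and F12 are left out.

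Ptprs, the LAR-subfamily receptor for proteoglycans of the matrix, was spread quite differently from Ptprf. It was nearly even in the BRP564 block, at 43.9 to 72.8 CPM (median 64.3). In the other BRP columns it was 46.0 to 667.3 CPM with a median of 437.2, and 11 of these 12 cells lay above every cell of the BRP564 block. Only BRP528, at 46.0 CPM, fell within that block's range. In the F columns Ptprs ran from 0.0830 to 325.3 CPM with a median of 24.03, and F2 alone exceeded 38.2 CPM.

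Ptprz1, the receptor known from glia and their precursors, was the highest of the 9 genes per kb in the BRP564 block. Its level there was 857.9 CPM in BRP564, 1208 in BRP566, 745.2 in BRP567, 628.0 in BRP568, 772.9 in BRP569, 284.3 in BRP570, 1435 in BRP571 and 1581 in BRP572. The F columns ran from 0 to 30.3 CPM with a median of 4.61, so the 2 blocks did not overlap. Of 12774 genes with a mean of at least 1 CPM, 24.8% lay in the same way with every cell of the BRP564 block above every F column, and among the 9 phosphatases Ptprz1 was the 1 that did. A share of 1 in 9 is below that background and says nothing particular about the family.

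In the other BRP columns Ptprz1 ran from 0 to 1176 CPM with a median of 24.8. BRP529 at 1176 CPM and BRP541 at 579.0 CPM lay within the range of the BRP564 block, and BRP528 came next at 148.9 CPM. The remaining 9 cells were at most 84.1 CPM, with 0 exonic counts in BRP535 and BRP542. The 3 high cells were the same 3 that held the most oligodendrocyte-lineage markers of their block, which was seen after the values were known. The markers differed between them: Pdgfra, the receptor that marks oligodendrocyte precursors, was at 256.9 CPM in BRP529, 200.1 in BRP541 and 0 in BRP528, while Mbp, a myelin gene, was at 18.6, 107.1 and 454.7 CPM. Summed astrocyte markers were at 2123 CPM in BRP529, 1739 in BRP528 and 547.2 in BRP541, and BRP528 and BRP529 were the 2 cells of the block with counts of all 8. BRP538 and BRP540, with 2463 and 2132 CPM of astrocyte markers, had 0.224 and 29.7 CPM of Ptprz1. In BRP538 nearly all of that sum was Slc1a2, at 2459 CPM. All 3 cells also had the full set of 7 neuronal markers, with sums of 4898 CPM in BRP529, 8577 in BRP528 and 8832 in BRP541. The part of other cells' RNA in these levels was not tested. Olig2, of the same oligodendrocyte-lineage list, was at 142.8 CPM in BRP529, 121.9 in BRP541 and 47.4 in BRP528. It was at 40.2 to 217.7 CPM in the BRP564 block. Pdgfra was at 6.42 to 75.1 CPM in the BRP564 block, and Mbp at most 6.17 CPM.

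Ptprg, which shares the carbonic anhydrase-like domain with Ptprz1, was present in all 20 BRP cells. Its exonic level was 5.91 to 259.4 CPM in the BRP564 block (median 106.5) and 41.0 to 318.8 CPM in the other BRP columns (median 220.3). In the F columns it was at most 3.07 CPM in 7 cells and 701.7 CPM in F7, from 6099 counts, the highest value of all 28 cells. F7 was thus the high cell of the F columns for both Ptprg and Ptprk, and with F1 it was among the 2 F columns with 0 exonic counts of Ptprm.

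For the other directions of comparison between blocks, 0 of the 9 genes had ranges that did not overlap. The background was 4.04% of the 12774 genes for the BRP564 block above the other BRP columns, 3.21% for the reverse, and 11% for the other BRP columns above the F columns. It was 0.0391% for the F columns above the BRP564 block and 0% for the F columns above the other BRP columns. At such shares, 0 of 9 is near the background in every direction.

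Ordered by median exonic CPM per kb, the BRP564 block gave Ptprz1 (57.2), Ptprf (50.3), Ptprg (9.68), Ptprk (4.58), Ptprs (4.29), Ptprd (2.96), Ptprm (2.43), Ptpru (0.0108) and Ptprt (0). In that order the ranges of all neighbours overlapped. The other BRP columns began with Ptprs (29.2), Ptprg (20.0), Ptprf (16.2), Ptprd (7.27) and Ptprk (5.49) before Ptprz1 (1.74). The F columns began with Ptprm (24.7), Ptprd (5.40) and Ptprs (1.60), and the remaining 6 genes had medians of at most 0.504. Neighbours overlapped in these orders as well, so the ranges over cells separated no adjacent genes. Ranges leave out that all genes were read in the same cells. Within each cell of the BRP564 block Ptprz1 was above Ptprf, Ptprf above Ptprg and Ptprm above Ptpru.

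Levels of some members rose and fell together within a block. Over the 8 cells of the BRP564 block, Spearman's rho of exonic CPM was 0.952 for Ptprf with Ptprz1, 0.952 for Ptprf with Ptprg and 0.929 for Ptprz1 with Ptprg. These were the highest values of any pair in that block and are named with all values known. The same pairs gave 0.0666, 0 and 0.403 over the 12 other BRP columns and 0.539, 0.160 and 0 over the 8 F columns. BRP570 was lowest and BRP572 highest in the BRP564 block for each of Ptprf, Ptprz1 and Ptprg. Ptprs with Ptprz1 gave -0.696 over the 20 BRP cells, but 0 and -0.459 within their blocks. Ptprm with Ptprz1 gave 0.820 over the 20 BRP cells. Within the BRP564 block, the other BRP columns and the F columns that pair gave 0.452, 0.635 and 0.419. The points share library kit and the scaling to the same cell totals, and the values are descriptions of these cells.

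Intronic counts changed the picture for the long genes. Of all counts of a gene, exonic and intronic, the intronic share over all cells was 93.5% for Ptprt, 84.2% for Ptprd, 75.9% for Ptprm, 58.5% for Ptprk and 49.0% for Ptprg, the 5 genes with the most intron sequence. It was 31.8% for Ptpru, 25.3% for Ptprz1, 17.7% for Ptprs and 0.991% for Ptprf. For Ptprf, 1046 of 105584 counts were intronic, with an exact binomial 95% interval of 0.932% to 1.05% that covers counting error only. The share of the family's counts that was intronic per cell ran from 15.2% to 51.7% in the BRP564 block, from 13.1% to 86.9% in the other BRP columns and from 2.73% to 96.5% in the F columns. The intronic share over all genes of a cell moved with it, at 5.67% to 13.0%, 8.91% to 38.8% and 5.31% to 63.0%. F1 held the lowest value of both.

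**Figure D3:**
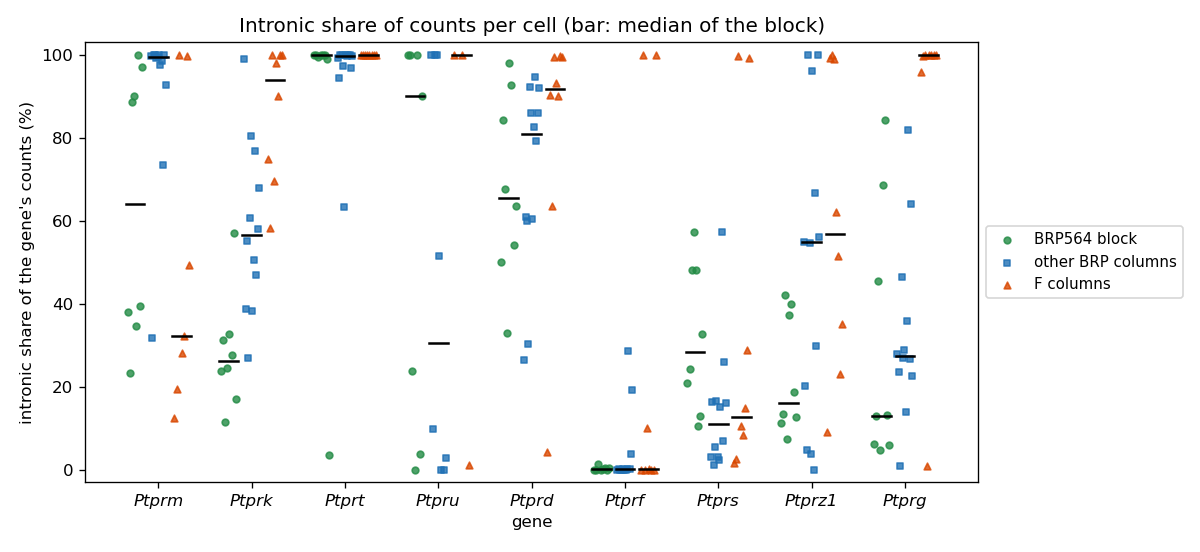
Each point is the intronic share (in %) of a gene's exonic and intronic counts in 1 cell, by gene on the x axis, with colour and symbol for the block and a black bar for the block median; cells without a count of the gene have no point. Ptprt lies near 100% in all but a few cells and Ptprf near 0%, while Ptprm and Ptprg are spread from low to high shares.

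Longer introns offer more bases to read, so intronic and exonic counts were also divided by length. On that scale intronic density was 0.0659 of exonic density in Ptprs, 0.0542 in Ptprd, 0.0410 in Ptprm, 0.0368 in Ptprk, 0.0296 in Ptprz1, 0.0156 in Ptprg and 0.00124 in Ptprf. These ratios pool all cells and can rest on few of them. For Ptprm, 58.9% of the intronic counts came from F7, which had 0 exonic counts. Over 6030 genes with at least 10000 exonic counts and an annotated intron the median was 0.00777. Genes with 0 intronic counts in all 28 cells were kept among them, such as Snap25 with 688644 exonic counts. The median and the percentiles include such genes, and whether the counting left out their introns was not tested. Ptprs stood at percentile 89.5 of the 6030 genes and Ptprd at 86.8, while Ptprf stood at percentile 26.0. Ptprs, with the shortest introns of the 9, thus had the highest density ratio, and Ptprf, its closest match in the catalytic sequence, the lowest of the 7 genes. Ptprt and Ptpru had too few exonic counts for this measure.

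Ptprd held 54.8% of the family's intronic counts. In BRP540 it had 77842 intronic against 4371 exonic counts, and in F24 it had 70219 against 314. In 23 of 28 cells its intronic counts exceeded its exonic counts. By mean intronic CPM Ptprd stood at percentile 99.9 of 17260 genes, and per kb of intron at percentile 82.8 of 16031.

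Ptprt was counted mostly in its introns. It had intronic counts in 28 of 28 cells, from 8 to 9527 counts, and in 18 of them no exonic count. BRP540 held 9527 intronic counts and BRP543 held 6110, against 0 and 10 exonic counts. BRP572 had more exonic than intronic counts, 424 against 15, and BRP537 had 1563 exonic against 2688 intronic counts. Its antisense gene Ptprtos lies within the gene, and reads from it cannot be told apart from Ptprt.

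For Ptprm, the cell with the most intronic counts had no exonic count. F7 had 34523 intronic counts, 58.9% of the gene's total, and 0 exonic counts, which allows an exonic level up to 0.345 CPM. F2, with the most exonic counts, had 5652 exonic and 809 intronic counts, and F24 had 4702 and 4561. In the BRP564 block, BRP570 had 4481 intronic and 7 exonic counts, while BRP571 had 887 and 1362. Spearman's rho between exonic and intronic CPM over the 28 cells was 0.307 for Ptprm, and 0.502 over the 20 BRP cells.

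Ptprg also had its intronic and exonic counts in different F columns. F11 had 8032 intronic and 1 exonic count, F12 had 4264 and 3, and F2 had 5412 and 17. F7 had 51 intronic and 6099 exonic counts. Among BRP cells BRP540 had 23964 intronic and 5306 exonic counts. The rho between exonic and intronic CPM was 0.289.

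Ptprk and Ptprz1 behaved otherwise, with exonic and intronic levels that went together. The rho over 28 cells was 0.877 for Ptprk and 0.787 for Ptprz1, followed by 0.627 for Ptprd and 0.536 for Ptprs, and it was 0.329 for Ptprt, 0.316 for Ptpru and 0.124 for Ptprf. In F7 Ptprk had 8931 intronic beside its 3889 exonic counts. In BRP529 and BRP541, Ptprz1 had 6597 and 4341 intronic counts beside 26276 and 10182 exonic counts. These correlations are across cells that share library kits and differ in depth.

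**Figure D4:**
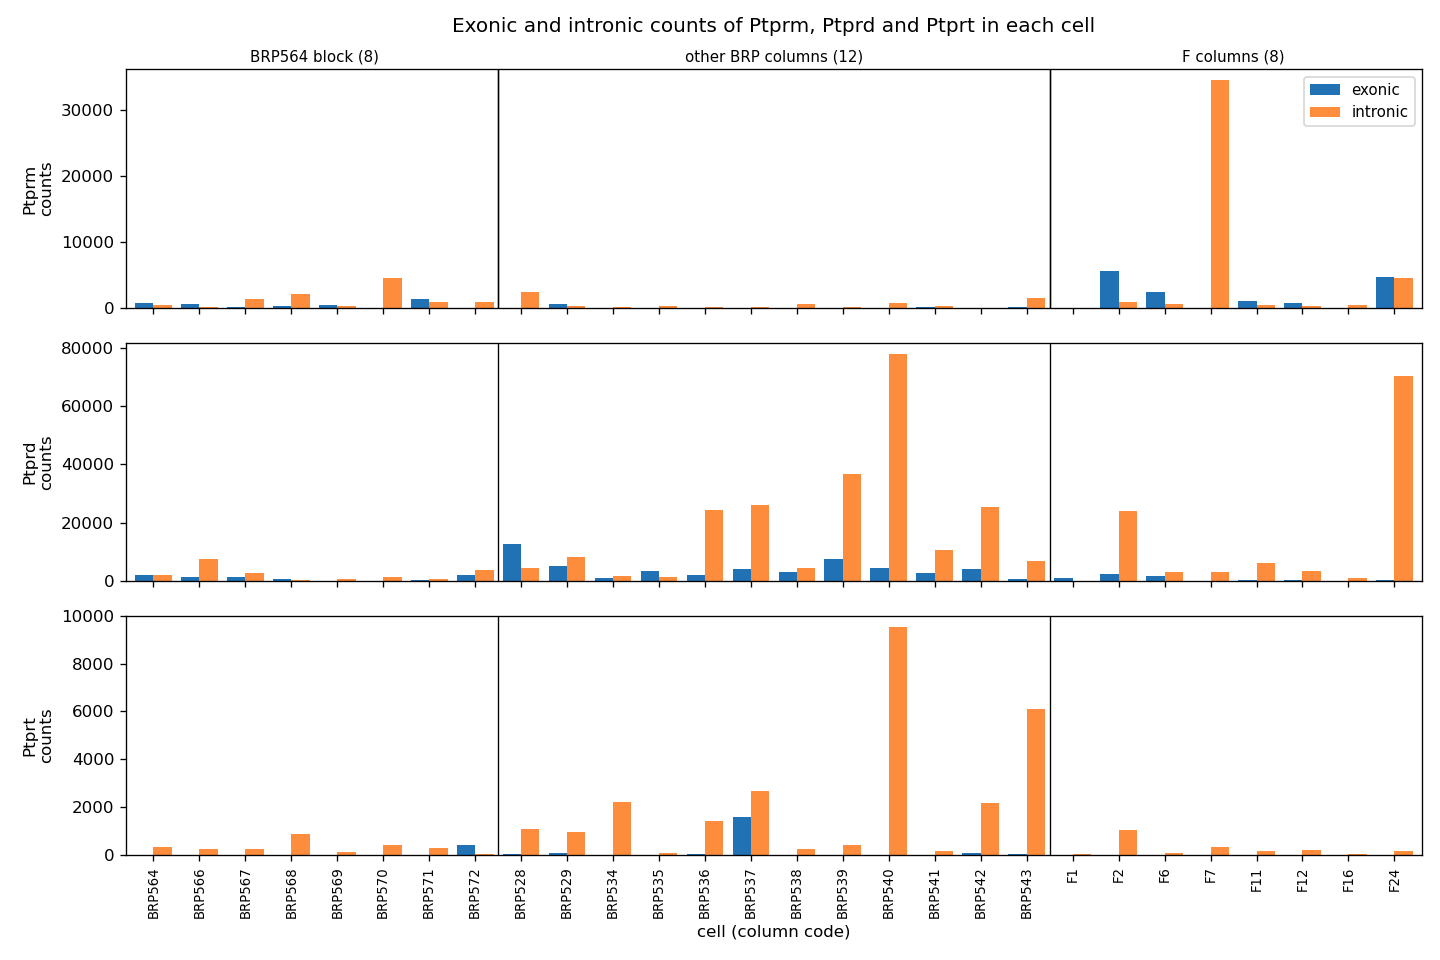
Bars give exonic (blue) and intronic (orange) counts of Ptprm, Ptprd and Ptprt in each of the 28 cells, with black lines between the 3 blocks of column codes and a separate linear y axis for each gene. Most intronic counts of Ptprm come from F7, which has no exonic count of the gene, and Ptprd has its tall intronic bars in BRP540 and F24.

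Ligands and partners of the 9 genes were taken from lists drawn up by known function. Of 11 contactins and other ligands of Ptprz1 and Ptprg, all 11 had counts, and their summed level had a median of 492.4 CPM in the BRP564 block, 1531 in the other BRP columns and 209.2 in the F columns. Cntn1, the contactin known to bind Ptprz1, was at 9.29 to 164.1 CPM in the BRP564 block, where the receptor was high, and at 162.8 to 688.9 CPM in the other BRP columns. Ncam1 and Nrcam, adhesion molecules of neurons and glia, had medians of 262.8 and 84.1 CPM over all cells. Ptn, which encodes pleiotrophin and was named after its values were seen, was at 12.8 to 678.3 CPM in the other BRP columns, 37.5 to 397.5 CPM in the BRP564 block and at most 7.01 CPM in the F columns.

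All 17 postsynaptic and matrix ligands of the LAR subfamily had counts, with medians of their sum of 1206, 2219 and 759.0 CPM in the same order of blocks. Ntrk3, a neurotrophin receptor that binds Ptprs, had a median of 2.74 CPM in the BRP564 block, 1086 in the other BRP columns and 362.9 in the F columns. Gpc4, a glypican secreted by astrocytes, was at 272.8 to 761.7 CPM in the BRP564 block, 3.57 to 274.1 CPM in the other BRP columns and 0 in all 8 F columns. Ncan, a chondroitin sulfate proteoglycan, had a median of 376.4 CPM in the BRP564 block, 181.1 in the other BRP columns and 1.31 in the F columns.

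Cytoplasmic partners of the LAR subfamily, 8 of 8 with counts, had summed medians of 575.7, 755.9 and 101.8 CPM. Trio, an exchange factor that binds LAR, had a median of 95.6 CPM over all cells, and the scaffold Cask had 95.7. The liprin Ppfia1 had a median of 35.6 CPM in the BRP564 block and 9.38 in the other BRP columns. Its relative Ppfia2, named after its values were seen, had a median of 0 in the BRP564 block and 260.9 in the other BRP columns, where it was never below 57.7 CPM.

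Cadherin and catenin partners of the MAM-domain genes, 7 of 7 with counts, had summed medians of 1728 CPM in the BRP564 block, 792.7 in the other BRP columns and 85.7 in the F columns. Ctnnb1, beta-catenin, had a median of 539.4 CPM in the BRP564 block, 392.2 in the other BRP columns and 2.38 in the F columns. Cdh2, N-cadherin, had medians of 213.6, 53.4 and 0.270 CPM, and Cdh4, R-cadherin, had medians of 29.2, 232.5 and 0 CPM. The sum ran from 1.19 to 1839 CPM over the F columns. Among the 5 with high Ptprm it was 1839 CPM in F6, 91.6 in F2, 79.7 in F11, 70.6 in F12 and 12.8 in F24. Among the F columns with little or no Ptprm it was 1636 CPM in F7, 110.8 in F1 and 1.19 in F16. A single gene made up nearly all of the 2 highest sums, Ctnnd1 in F6 (1830 CPM) and Ctnna1 in F7 (1613 CPM). Both were named after their values were seen.

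Of 12 other receptor-type phosphatases, all 12 had counts, and their summed medians were 158.7, 465.8 and 672.4 CPM. Ptpra had a median of 105.7 CPM over all cells and up to 1679 CPM in an F column, Ptprn2 a median of 59.9 CPM and Ptpre one of 26.6 CPM. Ptpra and Cask had 0 intronic counts in all 28 cells.

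Finally, each member with exonic counts in at least 14 cells was compared with 8201 genes by Spearman's rho of exonic CPM over the 28 cells. The genes most like Ptprs were Mboat7 (rho 0.932), Tspan13 (0.928) and P4htm (0.926). Those most like Ptprz1 were Cpt1a (0.911), Wisp2 (0.868) and Jam2 (0.867). For Ptprk they were Dus3l (0.898), Pde4b (0.794) and Phf6 (0.767), for Ptprg Zfp131 (0.818), Hdac2 (0.814) and Ireb2 (0.810), and for Ptprf Manf (0.804), Stag2 (0.792) and Jkamp (0.773). Ptprd had lower values, with Nrg3 (0.728), Cdh10 (0.701) and Atp2b2 (0.686), and Ptprm the lowest, with Grin3a (0.698), Gabpb2 (0.648) and Abcd3 (0.608). Some of these genes had few or no counts in many cells, and their rho rest partly on such cells. Median levels were 0.0225 CPM for Cpt1a, 0.0992 for Gabpb2, 0.164 for Wisp2 and 0.450 for Cdh10. The cells share library kit within blocks and differ in depth, most of all among the F columns. In the 20 BRP cells alone, 4 of the 21 names were found again. Ptprt and Ptpru had counts in too few cells.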

How the data were processed

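Raw read counts for 28 single cells, as whole numbers, were deposited by the authors in an exonic and an intronic table. Per the submitters' processing notes bcl2fastq 2.17, STAR 2.4.0 and mm10 were used. The counting tool, annotation, strand setting and filters are not given in the sources used here. Counts are of amplified reads, so intervals cover counting error only.

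Counts were divided by the cell's exonic or intronic total (CPM), and by exon or intron length from GENCODE M21 (GRCm38) where genes were compared. A count of 0 was read against a limit of 3 counts. Members, lists and blocks of columns were chosen with earlier results of these data known. No column matched a sample label, so no test was made and values are ranges and medians over cells, as fixed in the design. Partner genes named are the 3 of each list with the highest median CPM, plus Ptn, Ppfia2, Ctnnd1 and Ctnna1. The likeness measure names 3 genes per member among genes with a mean of at least 10 CPM in 14 cells or more. The leading gene by other lengths was added after the data were examined. The ranking of like genes was tested on simulated data. The catalytic sequence of 1 member is not reported here.

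Python 3.11.15, numpy 2.4.6, pandas 2.3.3, scipy 1.17.1 and matplotlib 3.10.9 were used, with edgeR 4.0.16 and DESeq2 1.42.0 in R 4.3.3 for alternative scalings only.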

Additional observations from a re-analysis of the deposited data

How the results depend on the processing

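The median over 28 cells of the 9 genes' summed exonic CPM was 1174. It was 938.3 with TMM factors, 683.3 with DESeq2 size factors, 1221 without the 10 genes with most counts in the totals, and 2108 with exonic and intronic counts added, and 1171 to 1176 with each cell left out in turn. The median intronic share of the family was 45.6%, against 36.4% without Ptprd, 52.5% pooled over all cells, 3.42% per kb of exon and of intron, and 39.5% to 51.7% with each cell left out. The median number of genes detected was 7, and 9 when an exonic or an intronic count sufficed. Of the 21 genes named as most alike to a member, 6 were named again by Pearson's r of log2(CPM + 1) and 4 by the BRP columns alone. Scaling also moved the medians of single genes: Ptprk fell from 52.9 to 21.9 CPM and Ptprg from 97.8 to 45.5 CPM with DESeq2 size factors, Ptprz1 rose from 30.0 to 52.4 CPM with TMM factors, and Ptprm rose from 2.73 to 53.8 CPM with intronic counts added. Counts under 5 set to 0 moved none of these medians beyond the range of the left-out cells.

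No paired analysis was possible because the columns carry no replicate number and no test was made. Depth limits the F columns most: 0 counts allow up to 3.58 CPM in F16.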
